A study of Mus musculus with 12 samples.

Results

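Libraries made from 1/4 of a mouse oocyte were set against libraries made from 1/2 of an oocyte, both amplified for 18 cycles. The members were chosen by their labels, which name the fraction of the oocyte, and they are 4 of the 12 libraries of the series, 2 for each fraction. The study made the fractions to show how ERCC normalization works. Its other libraries came from whole oocytes at 10, 14 and 18 cycles and from 1/8 of an oocyte at 18 cycles.

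All groups were fully grown oocytes with an intact nuclear envelope from a B6D2F1 female aged 12 weeks, handled in M2 medium with milrinone, an inhibitor of phosphodiesterase that holds the oocyte in meiotic arrest. The lysate of a single oocyte was diluted to give each fraction, and 2 oocytes served for all fractional libraries. An equal amount of ERCC molecules, which are synthetic polyadenylated RNAs, was added to each sample. Poly(A) RNA was copied from oligo-dT primers, amplified and made into Nextera libraries. The labels do not say which fraction number came from which oocyte. The spread between libraries of a fraction may then hold a difference between oocytes, between preparations or both, and these cannot be told apart.

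A fully grown oocyte rests in prophase of the first meiotic division and transcribes little. It lives on a store of mRNA, part of it kept with short poly(A) tails, and during maturation this store is translated or degraded in a set order before the embryo makes RNA of its own. Dilution of a lysate takes RNA away from all genes alike, so that the ERCC molecules, added in equal amount, carry the dilution and the proportions among genes carry the composition.

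The libraries of 1/2 held 4024670 counts on genes in replicate 1 and 3598549 in replicate 2, and those of 1/4 held 4027907 and 5049518. Counts are reads assigned to genes without molecular identifiers, so that all intervals given here cover counting error only. Of 55573 genes in the files, 14788 reached 5 counts in 2 or more of the 8 libraries at 18 cycles and were tested.

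Markers of the oocyte were checked first. All 14 markers were counted in every library, with sums of 13819 and 11530 CPM (counts scaled to an equal total on genes) for 1/2 and 16231 and 18281 for 1/4. *H1foo*, the linker histone of the oocyte, gave 15646 and 8205 counts in 1/2 and 10475 and 17109 in 1/4. *Ddx4*, an RNA helicase of the germ line, was the lowest of the 14 with 72, 95, 160 and 209 counts in the same order, which is kept below: 1/2 replicates 1 and 2, then 1/4 replicates 1 and 2.

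Markers of other cells were counted as well. The 22 markers of cumulus and granulosa cells summed to 1604, 1359, 1118 and 1533 counts, most of them on *Serpine2*, an inhibitor of serine proteases, with 1453, 1234, 870 and 1207. *Nr5a2*, a nuclear receptor, had 77, 52, 97 and 128 counts and *Cyp19a1*, the aromatase, 36, 50, 90 and 118, both higher in 1/4 and of the order of *Ddx4*. The defining markers had few counts. *Fshr*, the receptor for follicle-stimulating hormone, was at 0 in all 4 libraries, which allows up to 3 counts in each. *Foxl2* had 4, 0, 0 and 0 counts, *Amh* 0, 0, 21 and 7, *Inha* 11, 1, 3 and 2 and *Fst* 0, 0, 3 and 2. Theca and stromal markers, 8 in number, summed to 7, 1, 0 and 1 counts, with *Cyp17a1*, *Col1a1* and *Pdgfra* among them, and none of the 8 was tested. The 11 markers of blood, immune and endothelial cells summed to 123, 90, 156 and 286 counts, led by *Csf1r* with 81, 34, 82 and 123. Of the defining markers of this list *Hbb-bs* and *Ptprc* were at 0, while *Pecam1* had 38, 49, 60 and 114 counts. The part of other cells in the results was not tested.

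1 library stood apart. Replicate 1 of 1/2 had fewer counts from long transcripts relative to short ones than the other 3 libraries, as set out below. Medians of gene lists are given with and without it, relative to all genes. Counts of genes are given without it only in part, and several counts of list members fall with 1 library left out.

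The counts on genes were first set against the ERCC molecules. Each library gave 439 (95% Wilson interval 430 to 448), 344 (337 to 350), 214 (211 to 217) and 174 (172 to 176) gene counts per ERCC count. Both values of 1/4 lay below both values of 1/2, and the difference of the log2 means was −1.01, a 2.01-fold lower ratio against a 2-fold step of dilution. The libraries are not paired by the labels, and 1/2 replicate 1 over 1/4 replicate 2 gave 2.53-fold while 1/2 replicate 2 over 1/4 replicate 1 gave 1.6-fold. Leaving out 1 library at a time gave −1.19 to −0.83. A two-sided exact permutation test of 2 against 2 libraries gave p = 0.33, the smallest it can give.

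That ratio rests on few molecules. ERCC-00002, ERCC-00130, ERCC-00096, ERCC-00074 and ERCC-00113 held 86.2% of all ERCC counts in the 4 libraries. ERCC-00130 had 1875, 2271, 4716 and 7428 counts, and relative to the genes, scaled by the median ratio, its log2 difference of 1/4 from 1/2 was 1.17. ERCC-00113 had 1186, 894, 1191 and 2245 counts, and its log2 difference was 0.33 with overlapping libraries. The other 3 lay at 0.68, 1.08 and 1.20.

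A minimum of 10 counts in each of the 4 libraries was met by 21 ERCC molecules, and each was higher in 1/4 relative to genes. Their median log2 difference was 0.79, or 1.73-fold, with a range of 0.10 to 1.54. For 15 of the 21 the libraries did not overlap, and 8 of the 21 lay above 1. With medians over genes and over molecules in place of both sums, a choice made after seeing the data, the log2 ratio of genes to ERCC was −0.74, or 1.68-fold. Of 59 ERCC molecules counted in any of the 4 libraries, 35 were counted in all 4. The 11 seen only in 1/4 had at most 5 counts and the 6 seen only in 1/2 at most 2.

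Gene by gene on the ERCC scale, size factors came from the median ratio over ERCC molecules and the 8 libraries at 18 cycles were fitted together. The median log2 fold change of 1/4 against 1/2 over the 14788 genes was −0.73, with quartiles of −1.18 and −0.23, and it was −0.47 without 1/2 replicate 1 and −0.90 without 1/4 replicate 1. Of the genes tested, 82.2% lay below 0 and 49.8% within 0.5 of −1. Among the 7717 genes with a mean of at least 50 normalized counts, these shares were 92.5% and 62.9% and the median was −0.79. The medians of single libraries, relative to the mean of 1/2, were 0.23, −0.23, −0.44 and −0.78 on the log2 scale, so that replicates of a fraction differed by a sizeable part of the step. Per ERCC count, both libraries of 1/4 were lower than both of 1/2 for 63.9% of genes and higher for 5.08%.

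**Figure D1:**
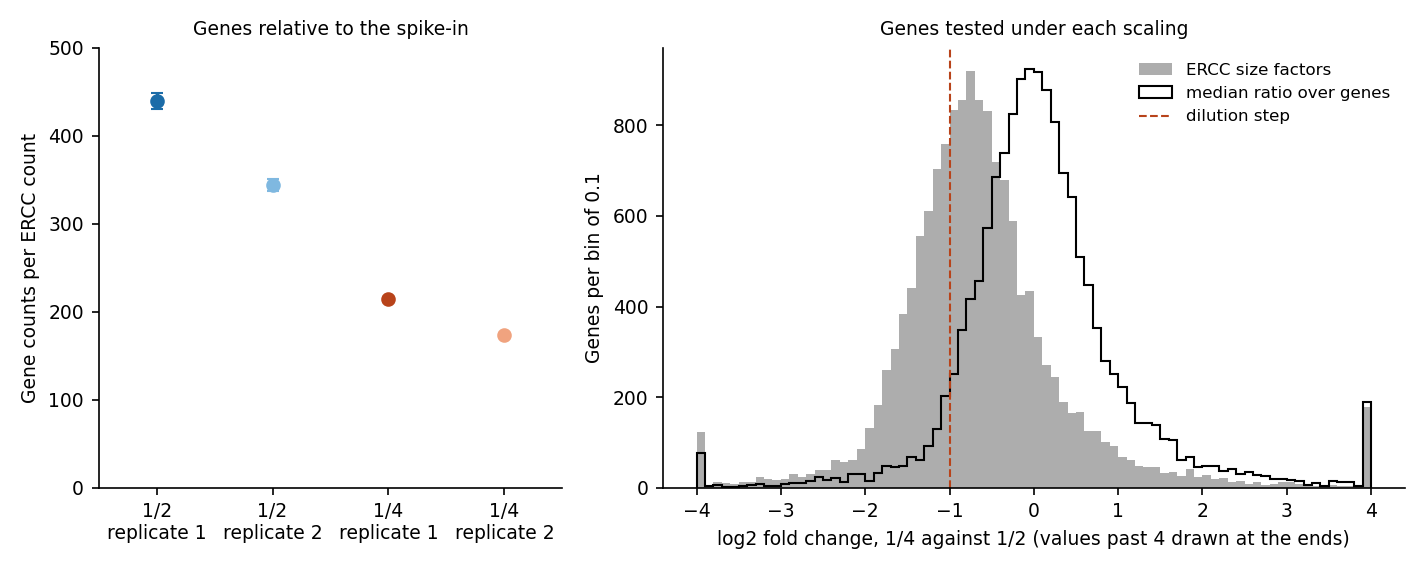
Counts on genes per ERCC count in each of the 4 libraries with 95% Wilson intervals, and the numbers of genes by log2 fold change of 1/4 against 1/2 under ERCC size factors (grey) and under the median ratio over genes (black line), with the dilution step of −1 as a dashed line. Both libraries of 1/4 lie below both of 1/2, and the median over genes is −0.73 on the ERCC scale and 0.02 by median ratio.

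Calls of single genes on this scale depended on which libraries were fitted. At an adjusted p under 0.01 in the quasi-likelihood test of edgeR after Benjamini-Hochberg correction, 5 genes fell in 1/4 (0.0338%) and 1 rose (0.00676%). With the 4 libraries of 1/2 and 1/4 fitted alone, 982 of 13570 genes were called lower (7.24%) and 27 higher (0.199%). At an unadjusted p under 0.05, 3375 genes were lower (22.8%) and 157 higher (1.06%), and DESeq2 called 459 lower (9.66% of the 4753 it gave an adjusted p) and 0 higher. Without 1/2 replicate 1 the unadjusted counts were 832 lower (5.69%) and 155 higher (1.06%), and the lower count was 1143 without 1/4 replicate 2 and 2192 without 1/4 replicate 1. Without 1/2 replicate 2 the lower count rose. The higher count was smaller with any library left out, most so without 1/4 replicate 1. With all libraries of the fit, the median standard error of a log2 fold change was 0.59. In the fit of the libraries at 18 cycles, no gene was called lower without 1/2 replicate 1 or without 1/2 replicate 2, and 1 was called lower with either library of 1/4 left out.

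The 5 that fell are given per 1000 ERCC counts, where a gene that follows the dilution alone would show about 1/2 of its level. *Oaf*, *Espn* and *Hoxd9* fell outside the rule for named genes and were picked after their values were seen. *Smarca5*, which encodes the ATPase of ISWI chromatin remodellers, had 54.7 and 94.6 in 1/2 against 10.8 and 10.2 in 1/4, a log2 fold change of −2.64 (SE 0.48, adjusted p = 0.0049 by edgeR). *Med11*, a subunit of the head of the Mediator complex, had 53.7 and 27.9 against 6.6 and 4.71 (−2.70, SE 0.52, adjusted p = 0.0096). Both genes were lower in each library of 1/4 than in each of 1/2 and, on the log scale, by more than the libraries of a fraction differed. *Oaf* had 5.56 and 6.88 against 0.532 and 0.619 (−3.26), *Espn*, an actin-bundling protein, 4.80 and 3.53 against 0.266 and 0.413 (−3.43), and *Hoxd9*, a homeobox factor, 5.24 and 2.87 against 0.213 and 0.138 (−4.40). These last 3 genes rest on fewer than 100 normalized counts in each library.

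Against the dilution step itself, with a log2 fold change of −1 as the null value, 0 genes lay further below (0%) and 1 lay above (0.00676%) at an adjusted p under 0.01 by edgeR. At an unadjusted p under 0.05 the counts were 158 below (1.07%) and 1100 above (7.44%), and DESeq2 called 0 in both directions. These unadjusted counts depended on single libraries. The count below rose without 1/2 replicate 2 and was smaller with any other library left out. The count above was smaller with any 1 library left out, most so without 1/4 replicate 1. None of the 5 genes that fell was called against the step, where their adjusted p by edgeR ran from 0.0804 for *Oaf* and *Hoxd9* to 0.175 for *Med11*. The gene above it was *Gm26917*, with an adjusted p of 0.00064 in the same test.

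*Gm26917* (ENSMUSG00000097971) is annotated as a long noncoding RNA on chromosome 17 of GRCm38, from 39843013 to 39846341 on the plus strand, and ends 11 bases from the rRNA gene *CT010467.1*. It had 7 and 102 raw counts in 1/2 and 8983 and 6633 in 1/4. On the ERCC scale its log2 fold change was 6.30 (SE 1.10, adjusted p = 0.0049 by edgeR), and on the median-ratio scale 6.83 (SE 1.44, adjusted p = 0.088). Whole oocytes at 18 cycles had 5542 and 2 counts on it, those at 10 cycles 6138 and 205, those at 14 cycles 5694 and 6659, and the libraries of 1/8 had 257 and 1. Libraries of equal input and cycles thus differed on this gene as widely as the fractions did.

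Its neighbours behaved otherwise. *CT010467.1*, from 39846353 to 39848827, had 42679, 66406, 45253 and 38087 normalized counts, and the log2 fold change on the median-ratio scale was −0.39. *Gm42418* and *AY036118*, which lie within its bounds, gave −0.39 and −0.42. For each of these 3 genes the replicates of 1/2 differed more than the means of the fractions, and the fractions overlapped.

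Composition was compared next, with size factors from the median ratio over all genes, which take out the shift shared by all of them. Pearson's r of log10 CPM across 14788 genes was 0.962 between the libraries of 1/2 and 0.968 between those of 1/4. Across fractions it was 0.942 and 0.947 for 1/2 replicate 1 and 0.955 and 0.956 for 1/2 replicate 2, against 1/4 replicates 1 and 2 in turn. All pairs share the range of gene abundance, and genes are not independent replicates. More than 2-fold apart were 20.4% of genes between the libraries of 1/2, 16.0% between those of 1/4, and 22.1 to 28.3% across fractions.

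The spread between replicates differed little between the fractions for rare transcripts and was narrower in 1/4 for abundant ones. The standard deviation of log2 values between libraries of a fraction was 0.66 for 1/2 and 0.60 for 1/4 over all genes tested, with a pseudocount of 1. For the 2438 genes above 100 CPM in whole oocytes at 10 and 14 cycles, it was 0.31 for 1/2 and 0.20 for 1/4. At equal depth it was 0.526 and 0.562 for genes above 0 and up to 1 CPM, and 0.913 and 0.916 for those at 1 to 5 CPM. Each value comes from 1 pair of libraries, and the pair of 1/2 holds replicate 1, the library that stood apart.

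Detection of rare transcripts was no lower in 1/4. With gene counts drawn down to the smallest total, 3598549, the libraries detected 16584, 16930, 17105 and 17439 genes, both of 1/4 above both of 1/2. At full depth it was 16794, 16930, 17310 and 18092 genes. At equal depth 82.1, 83.4, 84.7 and 88.1% of 3880 genes at 1 to 5 CPM in whole oocytes were counted. Of all genes 13732 were counted in all 4 libraries, 299 in both of 1/2 and neither of 1/4, and 475 in both of 1/4 and neither of 1/2. Genes of these last 2 kinds had a median of 2 counts.

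No gene passed an adjusted p of 0.01 on the median-ratio scale by edgeR, with 0 lower (0%) and 0 higher (0%). At an unadjusted p under 0.05 the counts were 915 lower (6.19%) and 927 higher (6.27%), and DESeq2 called 11 lower (0.105% of 10487 genes) and 15 higher (0.143%). Without 1/2 replicate 1 the unadjusted counts were 319 lower (2.18%) and 527 higher (3.61%), without 1/4 replicate 1 they were 470 and 504, and without 1/4 replicate 2 they were 417 and 640. Without 1/2 replicate 2 the lower count rose and the higher count was smaller. The libraries did not overlap, with 1/4 lower, for 22.6% of genes and, with 1/4 higher, for 24.4%. The median log2 fold change was 0.02, with quartiles of −0.41 and 0.50, and 80.5% of genes lay within 1 of 0. Among the 7717 well-counted genes that share was 94.0%. The study lists 147 genes as constant during oocyte maturation, of which 89 were tested here. A scaling on these genes moved the median to 0.53, and total counts moved it to 0.13. Whether the constant genes hold their share between fractions of a lysate was not tested. At an unadjusted p under 0.05 the constant genes gave 90 lower (0.609%) and 2888 higher (19.5%), and total counts 640 lower (4.33%) and 1195 higher (8.08%).

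The genes with the smallest p in the upper direction are named without having passed the threshold. *Klhl21* (ENSMUSG00000073700), on chromosome 4 from 152008803 to 152017680, encodes a substrate adaptor of a cullin ubiquitin ligase that acts in cytokinesis. It had 164 and 158 normalized counts in 1/2 and 1217 and 661 in 1/4, a log2 fold change of 2.54 (SE 0.41, adjusted p = 0.0497 by edgeR, and 7.85e-11 to 0.387 over the alternatives). Both libraries of 1/4 were above both of 1/2, which the rule that named it required. *Klhl21* passed the threshold in the fit of the 4 libraries alone and in the fit with replicates as a block. DESeq2 did not call it (adjusted p = 0.041). *Gm9768*, which overlaps it on the opposite strand, had 80.9, 59.4, 539 and 259, and reads of the pair cannot be told apart in counts that look unstranded.

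*Eif4ebp2*, a repressor of cap-dependent translation, had 47.0, 59.4, 196 and 266 normalized counts, a log2 fold change of 2.12. *Dedd2*, a death effector domain protein, had 16.9, 19.1, 157 and 137 (3.02), and *Cstf2t*, a cleavage stimulation factor of mRNA 3′ ends, had 22.6, 26.2, 119 and 111 (2.23). For each of these 3 genes both libraries of 1/4 were above both of 1/2, which the rule that named them required. *Vrtn* lay at 277, 208, 889 and 646 (1.66), *Slco5a1*, a solute carrier, at 11.3, 14.1, 109 and 73.9 (2.84), *Kif26b*, a kinesin family member, at 13.2, 18.1, 91.6 and 87.7 (2.51), and *Vcl*, which encodes vinculin, at 22.6, 61.4, 228 and 152 (2.18). Adjusted p-values of these 7 genes by edgeR ran from 0.0589 to 0.088, and DESeq2 called each of them.

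In the lower direction *Med11* (ENSMUSG00000018923), on chromosome 11 from 70451919 to 70453727, came first with 463 and 294 normalized counts in 1/2 and 110 and 90.4 in 1/4. Its log2 fold change was −1.92 (SE 0.34, adjusted p = 0.0589 by edgeR, and 0.000126 to 0.556 over the alternatives). *Med31*, another subunit of Mediator, had 605, 317, 149 and 160 (−1.57). Both subunits lay lower in each library of 1/4, which the rule that named them required.

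*Gpd2*, the mitochondrial glycerol phosphate dehydrogenase, had 86.5, 88.5, 17.8 and 14.5 normalized counts (−2.44), and *Uqcc2*, an assembly factor of respiratory complex III, had 981, 668, 365 and 272 (−1.37). *Gabarap*, a ubiquitin-like protein of autophagosomes, lay at 263, 145, 75.6 and 46.2 (−1.75), and *Siah2*, a ubiquitin ligase, at 3219, 5128, 1327 and 1530 (−1.55). *Smarca5* had 471, 996, 181 and 196 (−1.96) and *Tmem128* 465, 348, 133 and 125 (−1.66). *Rps27l*, a ribosomal protein paralog, had 1086, 641, 319 and 294 (−1.49), and *Efna1*, the ligand ephrin A1, had 208, 129, 22.2 and 67.3 (−1.89). For all 8 genes the libraries of the 2 fractions did not overlap, which the rule that named them required.

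**Figure D2:**
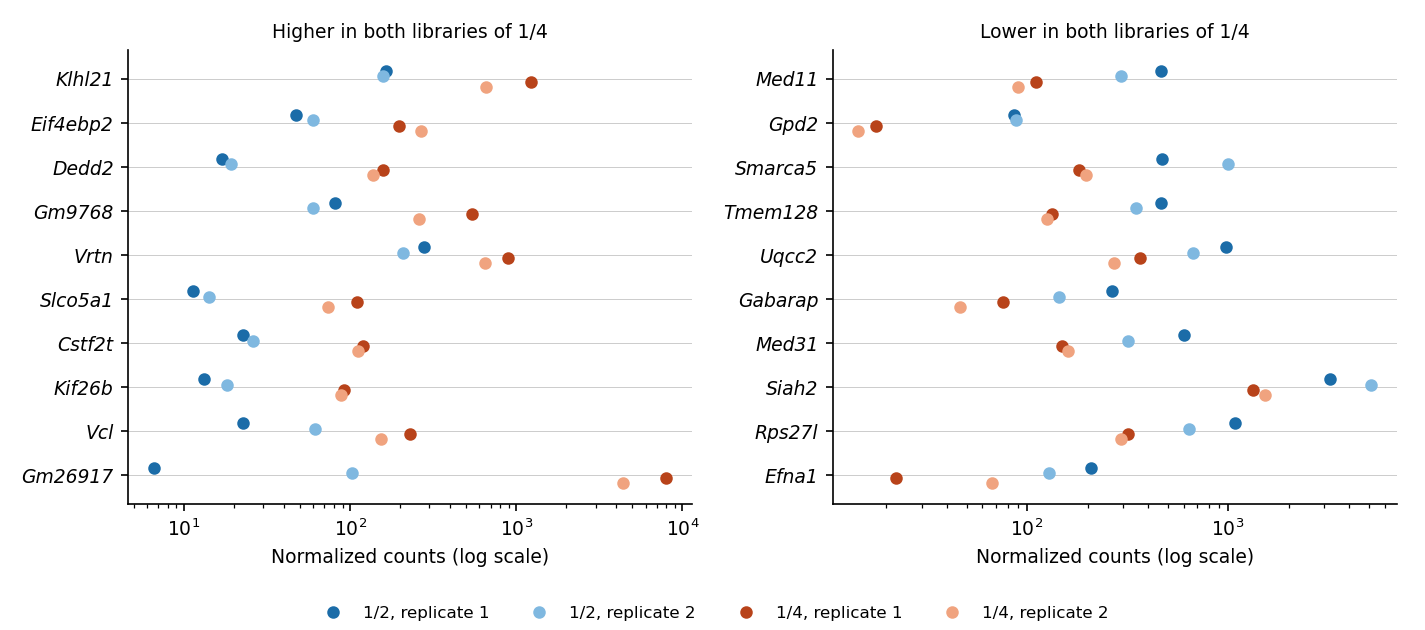
Normalized counts on a log axis, by median ratio, of the 10 genes named in each direction, 1 point for each of the 4 libraries. None passed an adjusted p of 0.01 by edgeR, and the libraries of 1/4 lie apart from those of 1/2 because the rule asked for it.

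Transcript length ordered the differences. In 5 classes of length with equal numbers of genes, the shortest up to 1522 bases and the longest from 4974 bases, the median log2 fold change was −0.25, −0.09, 0.04, 0.09 and 0.22. At an unadjusted p under 0.05, 10.7% of the shortest class were lower and 1.89% higher, against 2.50% and 11.2% of the longest. Against 1/2 replicate 1 the medians ran from −0.43 to 0.35 for 1/4 replicate 1 and from −0.34 to 0.31 for 1/4 replicate 2. Against 1/2 replicate 2 they ran from −0.12 to 0.14 and from −0.04 to 0.08.

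The same order appeared within a fraction. Replicate 2 of 1/2 minus replicate 1 gave −0.33 in the shortest class and 0.19 in the longest, while replicate 2 of 1/4 minus replicate 1 gave 0.05 and −0.07. The gradient thus lay mostly in 1/2 replicate 1, and what set that library apart was not tested. Classes of GC content had fitted medians between −0.02 and 0.06, but single pairs were ordered. From the lowest to the highest GC content, replicate 2 of 1/2 minus replicate 1 went from 0.06 to −0.20, and 1/4 replicate 1 minus 1/2 replicate 2 from −0.10 to 0.11. Against 1/2 replicate 1, the medians of the highest class were −0.07 for 1/4 replicate 1 and −0.13 for 1/4 replicate 2, so that the pairs offset each other in the fit.

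**Figure D3:**
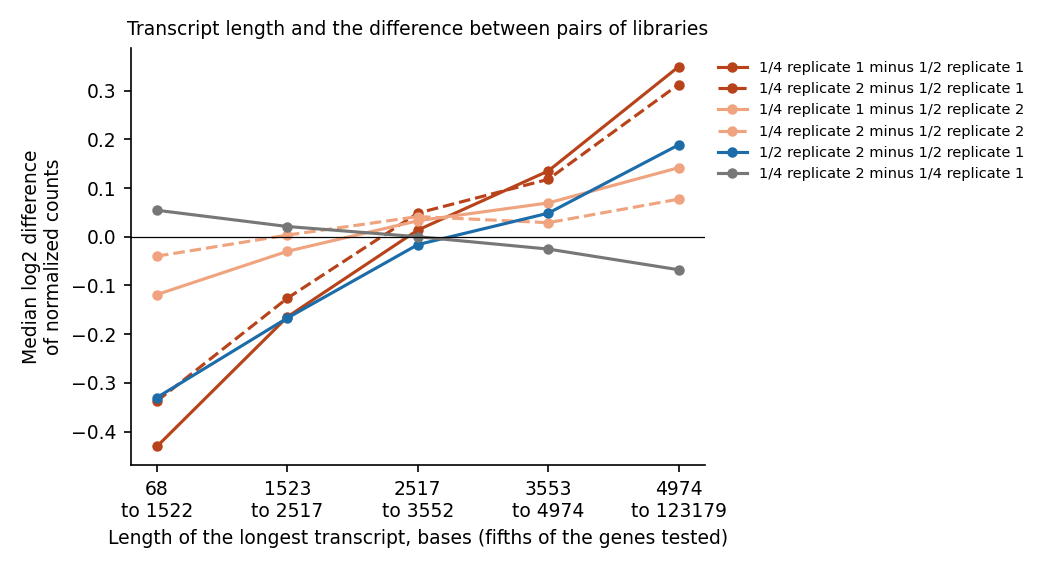
Median log2 difference in 5 classes of the length of the longest transcript, for each pair of libraries across fractions and within them. The pairs with 1/2 replicate 1 climb from short to long transcripts, while the pair within 1/4 stays between −0.07 and 0.05.

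Groups of genes were then read by their roles, as medians of log2 fold changes on the median-ratio scale against 0.02 for all genes tested. No member of any list passed an adjusted p of 0.01 by edgeR, and DESeq2 called *Zp2* alone, so the members are counted at an unadjusted p under 0.05 against 6.19% lower and 6.27% higher over all genes, or 2.18% and 3.61% without 1/2 replicate 1. Counts of members whose libraries did not overlap are read against 22.6% and 24.4%. With the constant genes all medians move up with that of all genes, so that a sign here is relative to the median of all genes.

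The oocyte builds its own coat, the zona pellucida, from secreted glycoproteins. The 9 genes of the coat and of sperm reception had a median of 0.72, with 5 higher and 0 lower. The libraries did not overlap for 5 members in the higher direction and 2 in the lower, the lowest at −0.66, and leaving out 1 library at a time put the median between 0.47 and 0.77 above that of all genes. *Zp2* had 2438 and 3496 normalized counts in 1/2 and 7171 and 7159 in 1/4, a log2 fold change of 1.27 (SE 0.30, adjusted p = 0.0981 by edgeR, and 0.00317 to 0.759 over the alternatives). *Zp3*, the most abundant of the 3 coat genes per length at 3446, 2903, 5649 and 6401 TPM, a level scaled by transcript length, lay at 0.72, and *Zp1* at 0.73. Summed over the list, CPM were 3865 and 3759 in 1/2 and 6725 and 7455 in 1/4, with no overlap. Per 1000 ERCC counts the sums were 1697, 1292, 1441 and 1295, and there the fractions overlapped.

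The subcortical maternal complex, a protein assembly under the oocyte surface that the early embryo needs, also lay higher. All 8 members were above 0, the lowest at 0.0074, with a median of 0.63, 4 higher and 0 lower. The libraries did not overlap for 5 members in the higher direction and 0 in the lower. With each library left out the median lay 0.43 to 0.73 above that of all genes. *Tle6* had 5928, 4687, 8857 and 8849 normalized counts (0.74) and *Zbed3* 31037, 31064, 46983 and 42513 (0.53). *Khdc3* had 62208, 46824, 74677 and 46129 (0.15), so that its libraries overlapped. The list summed to 29944, 26437, 41639 and 35647 CPM.

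Growth factors of the oocyte and *Kit*, 5 genes, had a median of 0.29 with 1 higher and 1 lower. Without 1/2 replicate 1 both calls were lost, and the median came to that of all genes (0.0050 above it). *Gdf9*, which drives the growth of granulosa cells, lay at 0.41 and its relative *Bmp15* at 0.29. *Fgf8* went the other way, with 4642, 2299, 1784 and 1272 normalized counts (−1.18), and both libraries of 1/4 were below both of 1/2. Oocyte transcription factors, 11 of 12 tested, had a median of 0.05 with 3 members in each direction, and fewer with either library of 1/4 left out. Relative to all genes the median was 0.027, and −0.16 without 1/2 replicate 2. *Foxo3*, which holds primordial follicles dormant, lay at 0.55 and *Pou5f1*, the pluripotency factor, at −0.75 with 1366, 1077, 725 and 727 normalized counts.

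Genes of meiotic arrest and resumption were read next. The prophase arrest list, 13 of 14 tested, had a median of 0.14. It had 2 higher members and 0 lower, and the 2 were lost without 1/2 replicate 1 or without 1/4 replicate 2. Of its members 10 lay above 0, and the libraries did not overlap for 6 in the higher direction and 1 in the lower. In it *Gja4*, the connexin of the junction with cumulus cells, lay at −0.46, *Gnas*, the stimulatory G protein, at 0.14, and *Pde3a*, the phosphodiesterase that milrinone blocks, at 0.44. The 17 genes around CDK1, cyclin B and Mos had a median of −0.09 with 2 higher and 3 lower, and 4 and 6 members did not overlap in these directions. *Mos*, the kinase that keeps the egg in metaphase of the second division, had 2589, 1325, 1561 and 2126 normalized counts (−0.09), and here the replicates differed more than the fractions. *Bcl2l10*, of the BCL2 family, had 13978, 7122, 6534 and 6953 (−0.65), with 1/2 replicate 1 far above the other 3 libraries.

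The stores of maternal mRNA are kept and cleared by separate sets of proteins. Genes of storage and translational repression, 16 in number, had a median of 0.12 with 3 higher and 0 lower, and *Zar1*, which binds stored mRNA, lay at −0.02. Deadenylation and decay genes, 23 in number, had a median of −0.09 with 2 higher and 0 lower, and *Btg4*, an adaptor of the CCR4-NOT deadenylase, lay at −0.15. The RNA exosome, 14 genes, had a median of −0.24 with 1 in each direction, and *Mphosph6*, a nuclear cofactor, lay at −0.63 with 3742, 2813, 1824 and 2415 normalized counts.

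DNA methylation genes and their protectors, 10 in number, had 3 higher members and 1 lower. The higher calls were lost without 1/4 replicate 1, and the lower call was lost without 1/2 replicate 2 or either library of 1/4. The median of the list was 0.32. Relative to all genes it was 0.30, 0.16 relative to genes of like length and 0.16 without 1/2 replicate 2. *Dnmt1*, the maintenance methyltransferase, lay at 0.25, and *Zfp57*, which guards imprints, at −0.40. Spindle and chromosome segregation genes, 20 of 21 tested, had a median of −0.23 with 0 higher and 1 lower, and for 10 of the 20 both libraries of 1/4 were below both of 1/2. *Cdca8* and *Birc5*, of the chromosomal passenger complex, lay at −0.78 and −0.56, and *Bub1b*, a checkpoint kinase, at 0.22.

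Ribosomal protein genes lay lowest of the lists with all libraries, and both that rank and its size rested on 1/2 replicate 1. Of 79 genes 75 were tested, with a median of −0.54, 15 lower (6.19% of all genes) and 0 higher, and 38 did not overlap in the lower direction. Without 1/2 replicate 1 the count of lower members was 0, and it was 31 without 1/2 replicate 2, 6 without 1/4 replicate 1 and 4 without 1/4 replicate 2. Their sums were 5884, 3955, 3424 and 3672 CPM, so that 1/2 replicate 1 was far above the other 3 libraries, which lay close together. Relative to all genes the median was −0.56, and it was −0.22 without that library, where the spindle list lay lower at −0.32, and −0.93 without 1/2 replicate 2. *Rplp0*, of the stalk of the large subunit, had 1924, 1218, 842 and 977 normalized counts (−0.79), and *Rplp1*, also of the stalk, lay at −0.71. These transcripts are short, with a median of 1059 bases, and relative to genes of the same length class the median was −0.36. Pseudogenes leave the assignment of ribosomal protein reads uncertain.

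The proteasome followed the same order of libraries. Its 31 core and cap genes had a median of −0.46, 15 lower and 1 higher. Without 1/2 replicate 1 the lower count was 1, and it was 2 without 1/4 replicate 1 and 7 without 1/4 replicate 2. The list had sums of 8325, 6370, 4791 and 5860 CPM. Relative to all genes the median was −0.48, −0.23 without 1/2 replicate 1, and −0.35 relative to genes of like length. *Psma7*, of the core ring, had 7843, 5873, 4104 and 4271 normalized counts (−0.71), with both of 1/4 below both of 1/2. *Psmb6*, a catalytic subunit, lay at −0.74 and *Psmd8*, of the cap, at −0.88.

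Genes that the study names in its text were also counted. *Rps20* had 697, 440, 354 and 324 normalized counts (−0.74), *Rpl32* 1110, 643, 571 and 644 (−0.53), and *Exosc10* 259, 242, 230 and 234 (−0.11). *Rpl19* was near the limit of counting with 12.2, 15.1, 16.0 and 19.1 (0.37, SE 0.75). The median of the 4 was −0.32, with 1 lower. Relative to all genes it was −0.34, and it was −0.13 without 1/2 replicate 1 and −0.57 without 1/2 replicate 2. *Rps20* and *Rpl32* were highest in 1/2 replicate 1.

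Counts on the mitochondrial genome were low. Of 13 mRNA genes 7 were tested, and 6, *mt-Co2* and *mt-Co3* among them, were at 0 in all 4 libraries while their neighbours were counted. How reads were assigned to these genes was not tested, so the sum does not measure all of their mRNA. The 13 summed to 169, 206, 277 and 382 CPM, both of 1/4 above both of 1/2, and the median was 0.42 with 3 higher and 0 lower. Relative to all genes it was 0.39, and 0.81 without 1/2 replicate 2 and 0.67 relative to genes of like length. *mt-Co1* had 159, 152, 283 and 425 normalized counts (1.19) and *mt-Nd1* 89.3, 78.5, 176 and 244 (1.32), while *mt-Cytb* overlapped with 220, 270, 262 and 280 (0.14). Per 1000 ERCC counts the sums were 74.4, 70.8, 59.3 and 66.3.

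The 14 oocyte markers had a median of 0.35 with 5 higher and 0 lower, but 12 of the 14, all except *Ddx4* and *H1foo*, are members of the lists above as well. The 15 cumulus and granulosa markers that were tested, 2 of them at 0 in all 4 libraries and kept through other libraries of the fit, had a median of 0.45 with 2 higher and 1 lower. Relative to all genes it was 0.43, and 0.18 without 1/2 replicate 2 and 0.21 without 1/4 replicate 2. Their summed CPM went the other way, with 399, 378, 278 and 304. *Serpine2* lay at −0.73 with 1366, 1242, 774 and 796 normalized counts, while *Nr5a2* lay at 0.45 and *Cyp19a1* at 0.91. Of the blood, immune and endothelial markers 4 were tested, with a median of 1.15 and 0 in each direction, and relative to all genes it was 1.13, and 0.62 without 1/4 replicate 2. *Pecam1*, an adhesion molecule of endothelium, had 35.7, 49.3, 53.4 and 75.2 (0.60), and *Kdr*, a receptor of vascular endothelial growth factor, 1.88, 7.04, 10.7 and 18.5 (1.70, SE 1.21).

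The other list medians, relative to all genes, were compared with and without 1/2 replicate 1. Among those above all genes, the zona list went from 0.69 to 0.77, the subcortical maternal complex from 0.61 to 0.43, the growth factors from 0.26 to 0.0050 and the DNA methylation list from 0.30 to 0.24. Mitochondrial mRNA went from 0.39 to 0.33, prophase arrest from 0.12 to 0.10, storage from 0.092 to 0.054 and transcription factors from 0.027 to 0.13. The growth factors were the list brought level with all genes. Among those below, the exosome went from −0.27 to −0.16, the spindle list from −0.25 to −0.32, decay from −0.12 to −0.15 and the CDK1 list from −0.11 to −0.086. The last 2 lists changed sign without 1/4 replicate 2, to 0.061 for decay and 0.14 for CDK1, and CDK1 was −0.30 without 1/4 replicate 1. By unadjusted p, the zona list, the subcortical maternal complex and the oocyte markers had fewer higher members with some libraries left out. The oocyte markers fell most without 1/2 replicate 2 or either library of 1/4, and the subcortical maternal complex without 1/4 replicate 1. Of the marker lists, that of the oocyte went from 0.32 to 0.40, that of cumulus and granulosa cells from 0.43 to 0.51 and that of blood, immune and endothelial cells from 1.13 to 1.05.

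**Figure D4:**
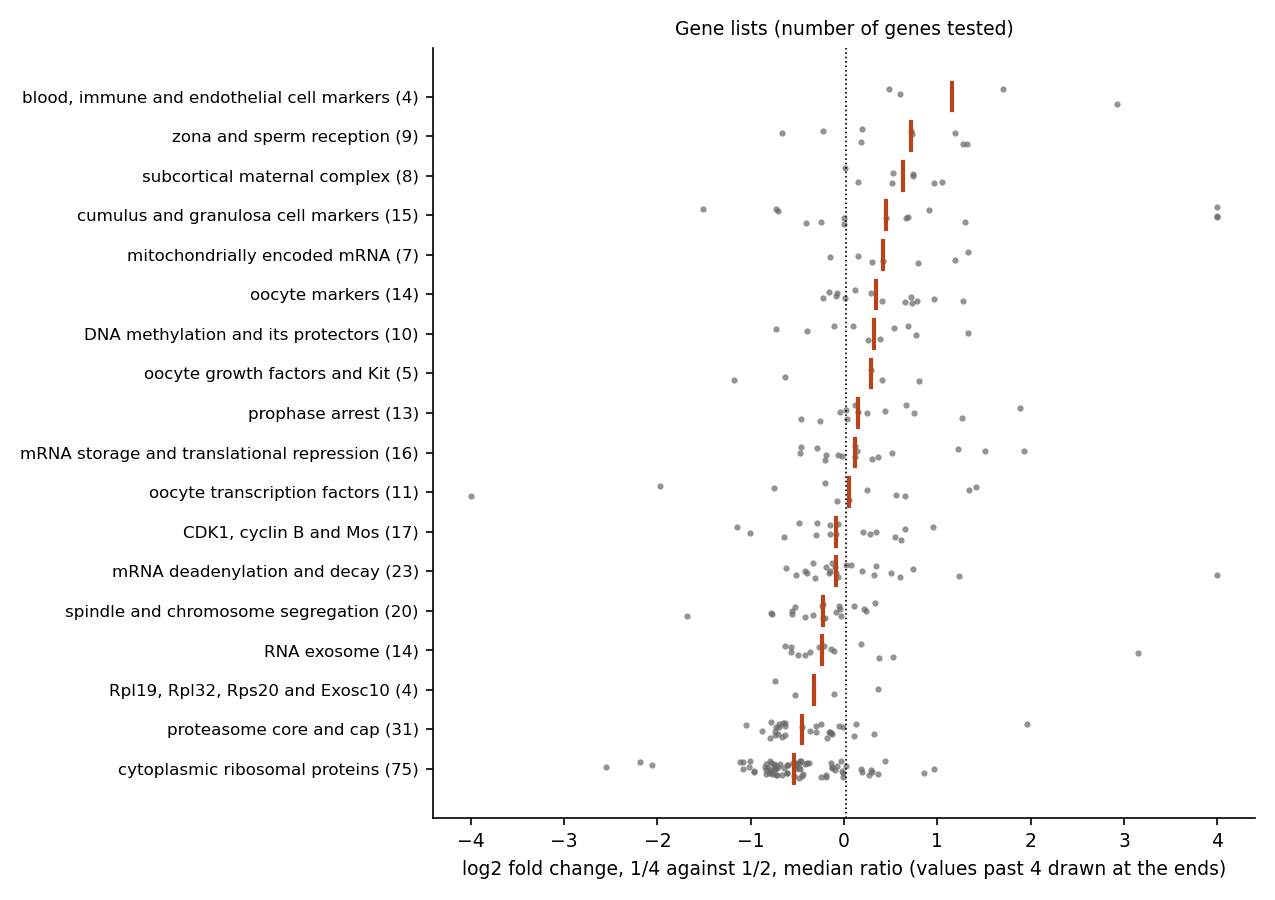
Median log2 fold change of 1/4 against 1/2 for each gene list with a tested member, by median ratio; points are genes, bars are medians and the dotted line is the median over all genes. The zona list has the median 0.72 and the ribosomal protein list −0.54, and with a scaling on constant genes the median over all genes moves from 0.02 to 0.53.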

How the data were processed

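The unit is the count: the authors deposited HTSeq counts per gene, used here as raw counts. The submitters' processing notes give cutadapt 2.5, FastQC 0.11.8, STAR 2.7.2a, SAMtools 1.9, HTSeq 0.9.1, R 3.5.1, DESeq2 1.24.0 and mm10. Reads on no feature were 6.90 and 7.57% of counts for 1/2 and 7.82 and 7.43% for 1/4. Genes that reached 5 counts in 2 or more of the 8 libraries at 18 cycles were fitted with edgeR 4.0.16 (quasi-likelihood test, group as the only term, Benjamini-Hochberg, threshold 0.01) in R 4.3.3, and again with DESeq2 1.42.0. Size factors were median ratios over genes, or over the 42 ERCC molecules that passed the same filter. Python 3.11.15 with scipy 1.17.1, numpy 2.4.6 and pandas 2.3.3 gave the other values. Simulated data with known changes were run through the same code as a check. Gene positions and lengths are from GENCODE vM21, which lists 55480 of the 55573 genes. Counts of overlapping genes on opposite strands, paralogs and pseudogenes are uncertain.

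Genes are named by a rule. It takes those past the threshold with a mean of at least 50 normalized counts and no overlap, filled up to 10 in each direction by the smallest unadjusted p. It adds the 10 with the highest counts scaled to the library total (CPM), the 3 highest of each list, the genes the study names and the 5 ERCC molecules with the most counts. 1 gene that the rule names is not reported here. Members and the 19 lists were chosen with earlier results of these data known. The fractions share 2 oocytes, but the labels do not tie replicate numbers to them.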

Additional observations from a re-analysis of the deposited data

How the results depend on the processing

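On the ERCC scale the count of genes lower (5) became 459 with DESeq2, 25 without a filter, 82 with at least 10 counts in every library, 982 with the 4 libraries alone, 40 with a replicate block, 2 with total ERCC counts and 0 with well-counted ERCC molecules. Leaving out 1 library gave 0 to 1, with 0 without 1/2 replicate 1 or 2. Genes higher (1) became 0 with DESeq2, at least 10 counts or total ERCC counts, 2 without a filter, 27 with 4 libraries, and 0 to 1 with 1 library left out. Below the step (0) the 4 libraries gave 10. Above it (1) the counts were 0 with DESeq2, at least 10 counts or total ERCC counts, 23 without a filter, 121 with 4 libraries, 14 with the block, and 0 to 3 with 1 library left out. The median on this scale was −0.90 to −0.47, the latter without 1/2 replicate 1.

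By median ratio, genes lower (0) became 11 with DESeq2, 27 without a filter and 1 without 1/4 replicate 1, a range of 0 to 1. Genes higher (0) became 15 with DESeq2, 64 without a filter, 3 with 4 libraries (*Dedd2*, *Klhl21* and *Gm26917*), 1 with the block (*Klhl21*) and 0 to 1 with 1 library left out, the 1 without 1/4 replicate 2. The replicate block treats equal numbers as 1 oocyte; across 14788 genes the replicate difference in 1/2 had a correlation of −0.04 with that in 1/4, and −0.09 across 10187 genes with at least 10 counts. ERCC molecules detected moved from 0.15 to 0.23 (log2) at 5 counts.

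List medians minus that of all genes, with 1 library left out, ran from 0.47 to 0.77 for the zona, 0.0050 to 0.40 for growth factors, −0.16 to 0.13 for transcription factors (0.19 with at least 10 counts), 0.10 to 0.25 for prophase arrest, −0.30 to 0.14 for CDK1, 0.16 to 0.33 for DNA methylation, 0.18 to 0.51 for cumulus and granulosa markers, −0.15 to 0.061 for decay, 0.054 to 0.20 for storage, −0.29 to −0.16 for the exosome, −0.32 to −0.17 for the spindle (−0.19 with at least 10 counts), 0.28 to 0.81 for mitochondrial mRNA (0.67 by length), −0.93 to −0.22 for ribosomal proteins, −0.71 to −0.23 for the proteasome, −0.57 to −0.13 for the genes the study named and 0.62 to 1.43 for blood markers (0.58 with at least 10 counts, 0.59 with 4 libraries).

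Some genes that passed no threshold changed sign. With constant genes *CT010467.1* gave 0.080, *Gm42418* 0.072, *AY036118* 0.046, *Zar1* 0.51, *H1foo* 0.40, *Gja4* 0.078, *Btg4* 0.36, *Mos* 0.48, *Zfp57* 0.11, *Rpl32* 0.027 and *Exosc10* 0.41. Total counts gave 0.079 for *Zar1* and 0.033 for *Mos*, the block 0.020 for *Mos*, and at least 10 counts 0.017 for *Zar1*. With 1 library left out *Khdc3* ran from −0.24 to 0.46, *Zar1* from −0.21 to 0.19, *H1foo* from −0.52 to 0.31, *Btg4* from −0.50 to 0.13 and *Mos* from −0.49 to 0.47. The correction for length and the ratio of median size factors were chosen after seeing the data. A fraction left with 1 library was assumed to vary like the other groups. The cause was not tested for any of these changes. With 2 libraries a fraction, small differences are not detectable, and the oocytes cannot be told apart from the preparations.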
